A study of Mus musculus with 5 samples.

Results

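Intermediate monocytes are sorted bone marrow (BM) monocytes in which transcripts of 4 azurophil granule genes, Mpo, Elane, Prtn3 and Ctsg, made up at least 0.1% and less than 1% of all transcript molecules. They were chosen by these measured values. Cells of both CD11b+Ly6Chi sorted libraries were kept from 200 detected genes upwards when mitochondrial transcripts stayed under 20%, and 2 further gates left out cells with 1% or more of their unique molecular identifiers (UMIs, each standing for 1 captured transcript) from the neutrophil granule genes Ngp, Camp and Ltf, or with 10 or more UMIs from the MHC class II genes H2-Aa, H2-Ab1 and H2-Eb1. The rule gave 830 cells of 4455 kept sorted cells and of 25975 kept cells in the whole series. The naive library held 298 of them among 1891 kept cells (15.8%, exact Clopper-Pearson 95% interval 14.1 to 17.5%), and the cyclophosphamide (CTX) library 532 among 2564 (20.7%, 19.2 to 22.4%). Sorted cells under the lower limit are called low monocytes here (1509 naive and 1865 CTX cells), and those at or above the upper limit high monocytes (35 and 100 cells).

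The series followed myelopoiesis, the making of myeloid cells in BM, after CTX, an alkylating chemotherapy drug that damages DNA of dividing cells. BALB/c mice of 4 to 8 weeks received 150 mg/kg CTX in PBS by intraperitoneal injection or were left untreated (naive), and the study's text places the CTX sort on day 7 whereas the sample labels give it no day. Each sorted group was 1 library of cells sorted with antibodies to CD11b and Ly6C. The labels describe pools of 3 mice per condition without saying whether this covers the sorted cells, and no group had a second library. Whole BM mononuclear cells of the same kinds of mice, naive and on day 2 and day 7 after CTX, gave 3 further libraries. No comparison could therefore be tested, and every interval below covers counting error only, not the spread between mice or libraries. Intervals of gene levels and ratios rest on UMIs summed over cells and leave out the spread between cells as well. The naive sorted library held 22694817 UMIs in 2223 barcodes and the CTX sorted library 29139672 UMIs in 2978 barcodes. Cell numbers stated for both sorted groups in the source publication are much larger than these barcode numbers. Most of the cells counted there are therefore not analysed here. The 2 sorted libraries shared 2 barcodes.

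Azurophil granules are the first granules that neutrophil precursors fill. Myeloperoxidase (Mpo) makes hypochlorous acid, and neutrophil elastase (Elane), proteinase 3 (Prtn3) and cathepsin G (Ctsg) are serine proteases. Their transcription is strongest in promyelocytes and in granulocyte-monocyte progenitors and falls as cells mature, so among monocytes it can mark cells close to these progenitors. Whether it does so in the cells chosen here was not tested. Monocytes that carry such transcripts have been called neutrophil-like.

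In GRCm38, Prtn3 lies on chr10:79874476-79883174 and Elane on chr10:79886247-79888215, both on the plus strand with 3072 bases between them. Mpo lies on chr11:87793581-87804413 on the plus strand, and Ctsg on chr14:56099881-56102574 on the minus strand. The promoters of the 4 genes that define the cells are shown because these genes were detected together in most intermediate monocytes. Each runs from 250 bases before to 50 bases after the RefSeq start (GRCm38.p6, gene strand, 5′ to 3′). Capitals mark GAGGAA, the core of sites bound by PU.1, a myeloid transcription factor. The RefSeq starts of Prtn3, Mpo and Elane lie inside the gene spans given above. The windows are chr11:87793534-87793833 (Mpo), chr10:79886062-79886361 (Elane), chr10:79879417-79879716 (Prtn3) and chr14:56102525-56102824 (Ctsg).
Mpo: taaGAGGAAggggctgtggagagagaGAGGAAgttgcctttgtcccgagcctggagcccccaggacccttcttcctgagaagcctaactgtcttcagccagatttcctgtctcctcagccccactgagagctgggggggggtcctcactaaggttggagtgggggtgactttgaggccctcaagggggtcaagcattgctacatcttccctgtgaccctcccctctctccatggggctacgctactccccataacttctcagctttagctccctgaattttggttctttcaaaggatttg
Elane: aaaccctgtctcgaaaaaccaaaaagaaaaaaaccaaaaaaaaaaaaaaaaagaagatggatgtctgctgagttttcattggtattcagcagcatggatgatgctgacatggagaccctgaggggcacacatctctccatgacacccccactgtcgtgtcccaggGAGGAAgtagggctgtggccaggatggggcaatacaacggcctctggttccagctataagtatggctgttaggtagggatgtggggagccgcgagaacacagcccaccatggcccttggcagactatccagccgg
Prtn3: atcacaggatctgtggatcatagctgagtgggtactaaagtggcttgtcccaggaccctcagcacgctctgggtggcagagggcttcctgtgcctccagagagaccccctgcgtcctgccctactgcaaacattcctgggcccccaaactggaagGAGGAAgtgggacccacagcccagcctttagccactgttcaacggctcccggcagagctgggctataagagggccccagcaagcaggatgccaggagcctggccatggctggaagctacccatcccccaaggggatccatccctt
Ctsg: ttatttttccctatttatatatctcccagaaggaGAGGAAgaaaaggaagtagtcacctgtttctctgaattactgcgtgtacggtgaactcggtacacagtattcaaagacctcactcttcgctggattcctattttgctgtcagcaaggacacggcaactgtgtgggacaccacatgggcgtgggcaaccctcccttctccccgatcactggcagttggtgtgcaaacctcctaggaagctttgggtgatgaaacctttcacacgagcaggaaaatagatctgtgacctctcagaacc

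GAGGAA was present in all 4 windows on the gene strand, once in Elane (first base at -85 from the start), Prtn3 (-95) and Ctsg (-216) and 2 times in Mpo (-247 and -224). Of 32851 RefSeq promoters of the same length, 28.3% held these letters on either strand. TTNNGNAA, a loose form of the site bound by C/EBP factors, was in none of the 4 windows on either strand and in 40.7% of all promoters. A match is a description of the letters and says nothing of binding.

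The azurophil share was a continuous range in the sorted cells and the limits of the rule did not fall at a gap (plot of the azurophil share per cell). In the naive library the highest low monocyte was at 0.0997% and the lowest intermediate monocyte at 0.10002%, the highest intermediate monocyte at 0.999% and the lowest high monocyte at 1.004%. In the CTX library the same 4 values were 0.09999%, 0.1002%, 0.993% and 1.002%. Around the lower limit, 67 naive and 86 CTX cells lay between 0.08 and 0.1%, and 37 and 69 between 0.1 and 0.12%. Around the upper limit, 14 and 22 cells lay between 0.8 and 1%, and 9 and 19 between 1 and 1.2%. Intermediate monocytes are here a range of a score, and whether they form a separate cell type was not tested. The 2 further gates took 1 cell out of the azurophil range, in the CTX library. UMIs of the MHC class II genes were 0 in 293 of 298 naive and 527 of 532 CTX members, and those of Ngp, Camp and Ltf were 0 in 279 and 450.

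**Figure D1:**
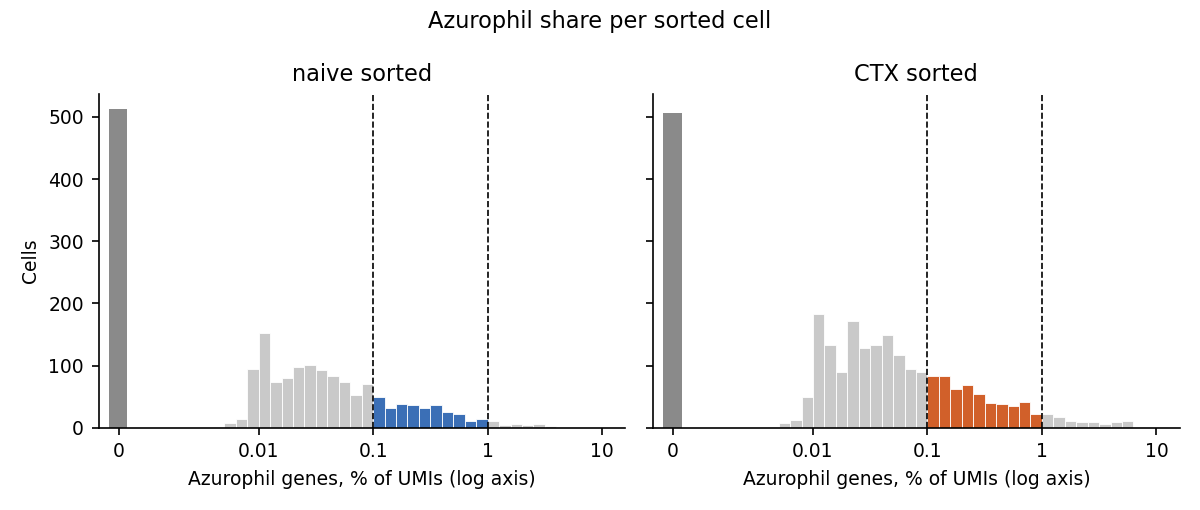
Number of cells (y axis) by the share of UMIs from Mpo, Elane, Prtn3 and Ctsg (x axis, percent, log scale) in the naive and the CTX sorted library, with cells at 0 in a separate bar at the left, intermediate monocytes in colour and the limits of 0.1 and 1% as dashed lines. In both libraries the counts run through both limits without a gap.

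The typical intermediate monocyte held azurophil UMIs from several of the 4 genes, with the largest part from Prtn3. The median azurophil share was 0.232% of UMIs in naive and 0.223% in CTX members, or 38.5 and 33 UMIs per cell, and 95.6 and 93.4% of members held at least 10 such UMIs. Only 4 naive and 2 CTX members had fewer than 3, all of them cells of low depth. As CPM, the UMIs of a gene per 1000000 UMIs of the summed cells, the rule genes stood in the naive and CTX libraries at 1564 and 1664 for Prtn3, 817 and 816 for Elane, 422 and 413 for Ctsg, and 373 and 329 for Mpo. Prtn3 gave 49.2 and 51.6% of the azurophil UMIs and Mpo 11.8 and 10.2%. In high monocytes of the naive library Mpo gave 25.1% of them. These are descriptions of the values that chose the cells.

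All 4 genes were seen in most members. At least 3 of the 4 were detected in 87.9% of naive and 86.5% of CTX members, and all 4 in 60.1 and 57.5%. After each cell was thinned to 4000 UMIs, the share with at least 3 was 59.6% (53.7 to 65.3%) and 60.9% (56.5 to 65.2%), against 1.35 and 2.25% of low monocytes. Low monocytes were not empty of these transcripts, since 61.0% of naive low cells held at least 1 Prtn3 UMI at a median depth of 9805 UMIs. In the cells left out for MHC class II, which should lack these genes, 17.9% of 28 naive and 44.4% of 9 CTX cells held a Prtn3 UMI and none a Mpo UMI, at a median of 8509.5 and 7149 UMIs. Members held a Prtn3 UMI in 99.7 and 99.6% and a Mpo UMI in 68.8 and 66.0% of cells, shares that the rule and the greater depth of members set in part.

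Intermediate monocytes held more transcripts per cell than low monocytes. The median was 17605 UMIs and 3914 genes in naive members against 9805 UMIs and 2817 genes in naive low cells, and 15504 UMIs and 3728.5 genes against 8970 UMIs and 2701 genes in CTX cells. Mitochondrial transcripts were at a median of 4.53 and 4.45% of UMIs in members and 3.98 and 4.08% in low cells. Scrublet marked 5 naive members (1.68%) and 20 CTX members (3.76%) as doublets, beside 2.12 and 2.41% of low cells. Shares of cells with given transcripts are therefore also given below at equal depth.

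Monocyte genes were detected in members at shares above and below those of low monocytes. Ly6c2, a gene of the sorted antigen, was detected in 98.3 and 96.6% of members thinned to 4000 UMIs and in 91.0 and 89.95% of thinned low cells. Ccr2, the receptor by which monocytes leave the marrow, was detected in 84.7 and 87.7% of thinned members and 97.4 and 96.9% of low cells. Csf1r, the receptor of the monocyte growth factor CSF1, was detected in 30.0 and 33.5% of thinned members and 51.7 and 50.8% of thinned low cells. Unthinned, at unequal depth, Csf1r was detected in 74.8 and 76.1% of members and 81.0 and 76.2% of low cells. Ccr2 was then detected in 97.7 and 97.7% of members and 98.3 and 98.4% of low cells. The part of free RNA in these shares was not tested. Of markers of earlier cells, Kit was at 0 UMIs in all 298 and 532 members, and 0 of 287 and 0 of 504 thinned members allow a share of cells with a UMI of up to 1.05 and 0.595% by 3 counts of the total, or 1.28 and 0.729% by the exact interval. Cd34 stood at 8.11 and 8.60 CPM.

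Markers of other cell types were low in members. The 10 neutrophil genes summed to 141 and 149 CPM in members against 456 and 433 CPM in low cells, led by the collagenase gene Mmp8 (58.9 and 69.3 CPM), with Cxcr1 at 0 in both libraries and Retnlg at 0 in naive members. The 10 dendritic cell genes summed to 11.4 and 9.71 CPM, led by Batf3, and the 8 macrophage genes to 23.8 and 19.8 CPM, nearly all Hmox1, with C1qa, C1qb and C1qc at 0. The 10 B lineage genes summed to 214 and 182 CPM, of which Ighm, also seen in myeloid precursors, gave 199 and 165, and Ms4a1 was at 0. The 6 plasma cell genes summed to 136 and 122 CPM (Xbp1 129 and 121), the 10 T and NK genes to 6.37 and 8.85 CPM with Cd3e and Trac at 0, the 8 erythroid genes to 0.386 and 0.614 CPM and the 8 basophil, eosinophil and megakaryocyte genes to 2.32 and 2.58 CPM.

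Members were compared with low monocytes gene by gene in each library, on UMIs summed over cells. A gene was measured where it had at least 200 UMIs over both sets and at least 20 CPM in 1 of them, and counted as higher or lower from 1 log2 unit (2-fold on the scale of CPM with 1 CPM added). Because the rule used the same cells, the result is a description. In the naive library 275 of 5723 genes were higher (4.81% of all measured) and 254 lower (4.44%), and in the CTX library 198 of 5781 were higher (3.43%) and 205 lower (3.55%). Both libraries shared 175 higher and 172 lower genes of 5581 measured in both, and no gene was higher in one and lower in the other.

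Genes of DNA replication were higher in intermediate than in low monocytes throughout. All 25 replication genes were at least 1 log2 unit higher in both libraries, with a median of 1.94 (naive) and 1.75 (CTX) against a median of 0.00 and -0.03 over all genes. Mcm6, a subunit of the helicase that opens DNA for replication, had 158 CPM among naive and 155 CPM among CTX members, against 30.3 and 33.7 CPM in low cells, a log2 ratio of 2.34 (95% interval 2.22 to 2.55) and 2.17 (2.06 to 2.34). Intervals are exact for the ratio of counts without the added 1 CPM, so a ratio need not lie in the middle. Cdca7, a chromatin factor of dividing cells, ranked first by the smaller of its 2 ratios (71.4 and 73.7 against 12.1 and 14.2 CPM, 2.47 and 2.30). Hells (2.52 and 2.05), a remodeller that acts with Cdca7, Mcm2 (2.25 and 2.06), the helicase loader Cdc6 (2.19 and 2.32), the ligase Lig1 (2.09 and 1.94) and the nucleotide enzymes Rrm2 (2.13 and 1.93) and Dut (1.99 and 1.87) followed. Psmc3ip, Mcm3, the primase Prim1 and the cyclin Ccne1 completed the 12 genes ranked highest.

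All 24 mitosis genes had ratios above 0 in both libraries, most of them under 1 log2 unit. Of 24 genes, 7 in the naive and 2 in the CTX library were at least 1 log2 unit higher and none was lower, with medians of 0.86 and 0.74. Mki67, the proliferation marker, stood at 469 and 530 CPM in members and 255 and 303 CPM in low cells (0.88 and 0.80), and the topoisomerase Top2a at 451 and 546 against 190 and 253 CPM (1.25 and 1.11). The cyclin gene Ccnb1 differed less (0.72 and 0.38).

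At equal depth, most intermediate monocytes held transcripts of both phases. At least 3 UMIs of 12 mitosis genes were found in 77.0% (71.7 to 81.7%) of naive and 78.6% (74.7 to 82.1%) of CTX members thinned to 4000 UMIs, against 24.4 and 29.1% of low monocytes. The unthinned shares were 92.6 and 91.7% of members and 30.9 and 36.8% of low cells. At least 3 UMIs of the 25 replication genes were found in 89.5% (85.4 to 92.8%) and 88.7% (85.6 to 91.3%) of thinned members, against 25.7 and 26.2% of low cells. Thinning left out 11 naive and 28 CTX members and 105 and 133 low cells. Without thinning, 8 naive and 14 CTX members held no mitosis UMI at all.

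The share of cells with such transcripts was higher in each azurophil range than in the one before it up to 0.5% in both libraries (plot of cycling cells by azurophil level). Cells with at least 3 mitosis UMIs made up 12.6, 34.99 and 57.8% of naive low monocytes under 0.02%, from 0.02 to 0.05% and from 0.05 to 0.1%. They made up 69.5, 80.8 and 86.4% of naive members from 0.1 to 0.2%, 0.2 to 0.5% and 0.5 to 1%, and 82.4% of high monocytes. In the CTX library the values were 20.5, 30.8 and 53.8%, then 73.3, 83.1 and 81.9% in members and 65.7% in high monocytes. For replication genes the member shares were 81.4, 95.2 and 95.5% (naive) and 82.8, 90.5 and 98.9% (CTX). Within members, the intervals of neighbouring ranges overlap in every case except for the naive replication list from the first to the second range. Across the lower limit of the rule the naive mitosis intervals overlap and the other 3 pairs do not.

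**Figure D2:**
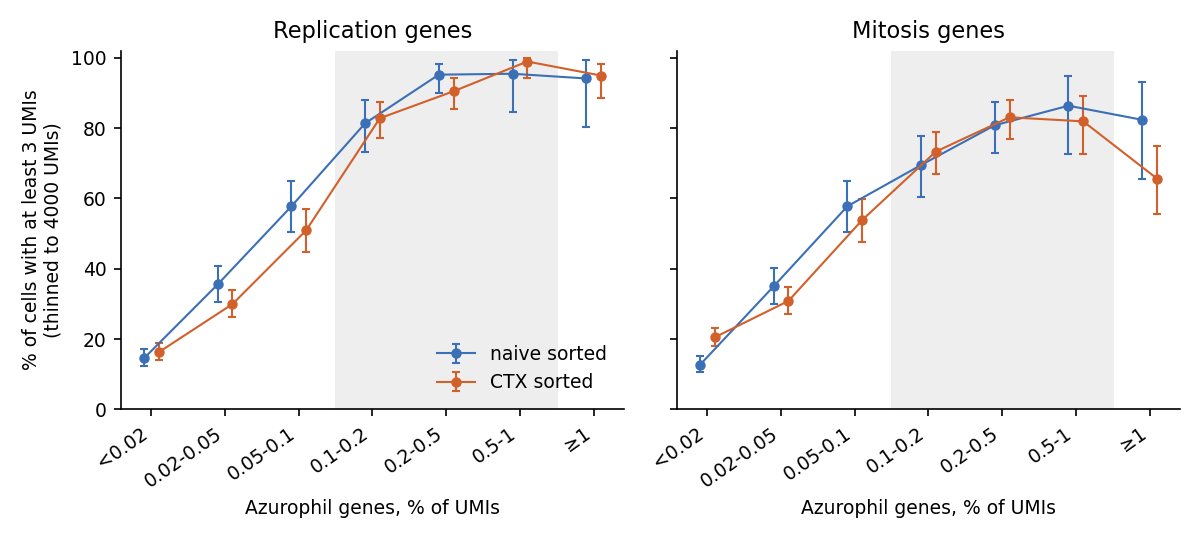
Percent of cells (y axis) with at least 3 UMIs of 25 replication genes (left) or of 12 mitosis genes (right) after thinning to 4000 UMIs, by azurophil share of UMIs (x axis, percent), in the naive (blue) and CTX (orange) sorted libraries, with exact 95% binomial intervals and the intermediate range shaded. The mitosis share climbs from 12.6 and 20.5% under 0.02% to 86.4 and 81.9% at 0.5 to 1%.

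Most measured genes of mature monocytes had ratios below 0 in intermediate monocytes, but fewer passed 1 log2 unit. These ratios compare shares of all UMIs, not UMIs per cell. Naive and CTX members held a median of 17605 and 15504 UMIs per cell, against 9805 and 8970 in low cells. In each library 16 of 17 classical monocyte genes and 9 of 10 genes of later monocytes were below 0. Of 17 measured classical monocyte genes, 8 in the naive and 7 in the CTX library were lower and none was higher (medians -0.99 and -0.92). Ccr2 stood at 608 and 598 CPM in members against 1207 and 1204 CPM in low cells (-0.99 and -1.01), and Fn1 (fibronectin) at 845 and 942 against 1816 and 1856 CPM (-1.10 and -0.98). Ly6c2 went the other way by a small margin, at 905 and 924 CPM in members against 791 and 743 CPM in low cells (0.19, 0.15 to 0.24, and 0.31, 0.27 to 0.35). Of genes of later monocytes, 4 of 10 measured were lower in each library (medians -0.64 and -0.51). Cx3cr1, the fractalkine receptor of patrolling monocytes, stood at 23.0 and 15.7 CPM against 83.5 and 73.0 CPM (-1.82 and -2.15) and was detected in 7.67 and 6.94% of thinned members against 28.3 and 24.3% of low cells. Apoe, the lipid carrier made by monocytes and macrophages, was at 18.0 and 59.0 CPM against 778 and 542 CPM (-5.36 and -3.18). Of 14 genes of marrow retention and exit, 5 and 4 were lower (medians -0.67 and -0.69), while Cxcr4, the receptor that holds cells in marrow, stood at 64.5 and 88.0 CPM against 56.3 and 61.8 CPM (0.19 and 0.50).

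Most measured chemokine ligand, inflammation and interferon genes were lower in members. Of chemokine ligand and inflammation genes, 9 of 13 measured in the naive and 7 of 11 in the CTX library were lower (medians -1.45 and -1.31), with Ccl6 at 134 and 117 CPM against 768 and 581 CPM (-2.51 and -2.30). Of 15 interferon-stimulated genes, 11 and 9 were lower (medians -1.17 and -1.08), with Irf7, their main amplifier, at 22.8 and 21.6 against 125 and 84.3 CPM (-2.40 and -1.92) and the antiviral membrane protein gene Ifitm3 at 1788 and 1595 against 3967 and 3291 CPM (-1.15 and -1.04). Of 14 immediate early genes, 6 and 4 were lower (medians -0.88 and -0.74). Among the 12 genes ranked lowest were Retnlg, with 0 UMIs in naive members and 0.369 CPM in CTX members against 59.0 and 63.5 CPM, the MHC class II chaperone Cd74 (1.74 and 1.72 against 39.0 and 29.9 CPM), Slfn5, an interferon-induced gene (15.1 and 11.8 against 168 and 135 CPM), and the cytokine signal inhibitor Socs3 (0.965 and 2.46 against 64.0 and 24.6 CPM). Neurl3, Pla2g7, Sirpb1c, Il13ra1, Slfn1, Sirpb1b and Clec2i, with Apoe, made up the rest. Retnlg is a gene of neutrophils and Cd74 of antigen-presenting cells, and the part of such cells among low monocytes in these ratios was not tested.

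Other granule genes differed in both directions. Of granule genes outside the rule, 2 were higher and 2 lower of 14 measured in the naive library, and 3 higher and 1 lower of 15 in the CTX library (medians -0.04 and -0.01). Fcnb, the ficolin of neutrophil precursors, stood at 105 and 160 CPM against 36.9 and 55.6 CPM (1.48 and 1.51), and Igfbp4, a growth factor binding protein found in progenitors, at 41.3 and 44.0 against 11.9 and 14.1 CPM (1.71 and 1.57). Serpinb1a, the inhibitor that protects cells from elastase and proteinase 3, stood at 96.7 and 96.1 against 51.0 and 55.4 CPM (0.91 and 0.78). Lyz2, the lysozyme of monocytes and neutrophils, was lower (-1.10 and -0.91). Ctsc, which activates the granule proteases, was also somewhat lower (596 and 469 against 735 and 560 CPM). Of late granule genes, 5 of 10 were lower in each library (medians -1.12 and -0.97), among them Cybb of the NADPH oxidase (-1.25 and -1.13), and none was higher.

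Progenitor, ribosome and secretion genes moved little. Of progenitor genes, 1 of 9 measured in the naive and 1 of 10 in the CTX library was higher, in both cases Myb, the transcription factor of immature blood cells, at 23.9 and 27.0 against 5.29 and 6.81 CPM (1.99 and 1.84). Irf8, which directs progenitors to the monocyte fate, stood at 625 and 614 against 416 and 434 CPM (0.59 and 0.50), and Cebpe, a granulocyte factor, at 50.8 and 44.5 against 34.6 and 35.9 CPM (0.54 and 0.30). Of 28 endoplasmic reticulum and secretion genes and of 30 ribosomal protein genes none passed 1 log2 unit in either direction (medians 0.22 and 0.18, and 0.21 and 0.17). Of 8 measured p53 target genes 1 was lower in each library, of 7 S100 genes 0 and 1, and the stefin A genes were too few to measure. Of 13 genes that the study names for neutrophil-like monocytes, a list drawn in part from these libraries and so not independent, 3 and 1 were higher and 2 and 2 lower (medians 0.84 and 0.80).

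A comparison of cycling cells alone was chosen after seeing the data. It kept cells with at least 3 mitosis UMIs of 4000, which left 221 members and 343 low cells (naive) and 396 and 504 (CTX). Then 17 of 5234 genes were higher (0.325%) and 46 lower (0.879%) in naive members, and 21 of 5686 were higher (0.369%) and 54 lower (0.95%) in CTX members. Of replication genes 5 of 24 and 6 of 25 were still higher (medians 0.88 and 0.81), whereas of 24 mitosis genes, whose level this choice sets in part, none was (medians -0.35 and -0.33). Monocyte identity genes had medians of -0.49 and -0.49, with 3 and 1 of 16 lower (in all cells -0.99 and -0.92, with 8 and 7 of 17), interferon genes -0.64 and -0.67 (-1.17 and -1.08 in all cells), and chemokine ligand and inflammation genes -0.57 and -0.86. Ribosomal protein genes moved away from 0, to 0.28 and 0.29, and granule genes outside the rule stood at 0.09 and 0.10, beside a median over all genes of -0.06 and -0.07. Of the 13 genes that the study names for neutrophil-like monocytes, none was higher and 2 were lower in each library. Their medians were -0.06 and -0.04, close to those over all genes.

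**Figure D3:**
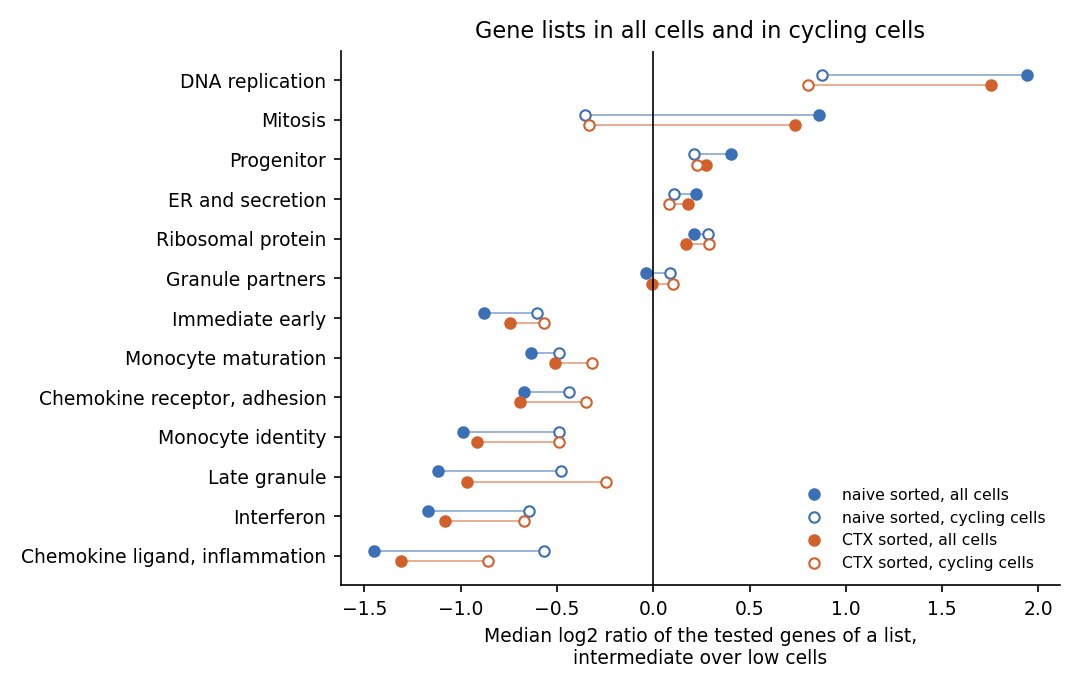
Median log2 ratio of intermediate over low monocytes (x axis) for the measured genes of each list (y axis), in all cells (filled) and in cells with at least 3 mitosis UMIs of 4000 (open), for the naive (blue) and CTX (orange) libraries. Replication genes stay above 0 at 0.88 and 0.81, mitosis genes move to -0.35 and -0.33, and monocyte identity, interferon and chemokine genes stay below 0.

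Within cycling cells the higher genes included replication genes and others. Mcm6 stood at 140 and 141 CPM in members against 58.7 and 58.0 CPM in low cells (1.24 and 1.27), Cdca7 at 62.7 and 60.1 against 19.8 and 24.8 CPM (1.61 and 1.24), and E2f1, which drives entry into S phase, at 37.0 and 42.6 against 14.2 and 20.1 CPM (1.33 and 1.05). Lbp, a binder of bacterial lipopolysaccharide (1.66 and 1.24), H2-DMb1, an MHC class II loading factor (1.37 and 1.13), and Igfbp4 (1.08 and 1.10) were higher without a role in replication. Lower genes were Slfn5 (-1.76 and -1.74), the matrix protein gene Thbs1 (-1.66 and -1.72), the monocyte attractant Ccl2 (81.4 and 33.4 against 250 and 104 CPM, -1.61 and -1.61) and Irf7 (-1.48 and -1.52). Cycling low monocytes still differed in depth, with a median of 15515 and 13501.5 UMIs against 19597 and 16543.5 in cycling members.

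Against high monocytes, members held more transcripts of monocyte genes and fewer of some progenitor and granule genes, at a like level of replication genes. In the naive library 219 of 3758 genes were higher in members (5.83%) and 17 lower (0.452%), and in the CTX library 307 of 5226 were higher (5.87%) and 50 lower (0.957%), with 137 higher and 15 lower in both. The rule used this contrast too, and nothing is read from these counts. Scaling by the median gene ratio, which moved all genes down by 0.12 and 0.19, changed the counts to 166 higher and 34 lower (naive) and 181 and 91 (CTX). The ratios below are to be read against these shifts. Fn1 stood at 845 and 942 CPM in members against 84.8 and 89.2 CPM in high cells (3.30 and 3.39), and the stress factor Atf3 at 488 and 277 against 92.9 and 49.0 CPM (2.38 and 2.48). Plbd1, a phospholipase, was at 56.6 and 62.4 CPM in members and rested on 1 and 15 UMIs in high cells (4.62, 2.90 to 10.7, and 2.70, 2.10 to 3.68). The cell-cycle inhibitor Cdkn1a (2.44 and 2.27) and the costimulatory receptor Cd86 (2.42 and 2.00) were also among the 12 ranked highest. Of measured monocyte identity genes, 10 of 16 were higher in each library (medians 1.12 and 1.26).

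Genes lower in members than in high monocytes were mixed in kind. Of granule genes outside the rule, 3 were lower and 1 higher of 14 measured in the naive library and 9 lower and 1 higher of 19 in the CTX library (medians -0.11 and -0.87), although their summed level, led by Lyz2, was higher in members of both libraries (19904 against 11141 CPM and 22177 against 14382 CPM). Of progenitor genes 0 of 8 and 3 of 10 were lower (medians -0.20 and -0.36). Ms4a3, which marks granulocyte-monocyte progenitors, stood at 11.6 and 25.3 CPM in members against 335 and 720 CPM in high cells (-4.74, -5.29 to -4.44, and -4.78, -5.05 to -4.62) and 1.07 and 1.48 CPM in low cells. It was detected in 14.1 and 19.5% of members, and in 4.53 and 6.94% of those thinned to 4000 UMIs. Srgn, the proteoglycan that packs proteases into granules, stood at 305 and 213 against 958 and 1761 CPM (-1.65 and -3.04), Igfbp4 at 41.3 and 44.0 against 162 and 218 CPM (-1.94 and -2.28), and the chaperone Calr at 224 and 221 against 571 and 643 CPM (-1.34 and -1.54). The granule genes Nkg7 (5.60 and 8.48 against 94.2 and 320 CPM), Prss57 (2.51 and 2.33 against 64.6 and 132 CPM) and Cd63 (0.579 and 2.21 against 17.5 and 157 CPM) stood higher in high cells, in the naive library at counts too low to be measured by the rule above. Secretion genes had medians of -0.45 and -0.49. Replication genes had medians of 0.19 and 0.03 with 0 of 24 and 0 of 25 past 1 log2 unit, and the CTX value lies below the median of all genes (0.19). Mitosis genes had medians of -0.06 and 0.50. Among cycling cells, 186 of 3207 genes were higher in naive members than in high monocytes (5.8%) and 17 lower (0.53%), and 201 of 4576 (4.39%) and 37 (0.809%) in CTX members.

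Members lay between the other 2 sets for most of the genes that told those sets apart, a description, since 1 score cuts all 3 sets. Of genes at least 1 log2 unit apart between high and low monocytes, 747 of 810 (92.2%) in the naive and 959 of 1040 (92.2%) in the CTX library had a member level between them, at a median position of 0.48 and 0.44 on a scale from low (0) to high (1). Genes chosen in 1 library were also measured in cells of the other, leaving out the rule genes and the replication and mitosis lists. The 317 genes that were higher in CTX high than in CTX low cells took a median of 1.75% of UMIs in naive low cells, 3.998% in naive members and 6.09% in naive high cells. Within naive members they took 3.68, 4.15 and 4.71% in the ranges from 0.1 to 0.2%, 0.2 to 0.5% and 0.5 to 1%. The 354 genes chosen in the naive library took 2.29, 5.82 and 7.64% in CTX low cells, members and high cells, and 5.15, 5.96 and 6.63% over the 3 ranges. Genes lower in high cells fell in the same order, from 22.1 to 13.1 to 6.35% of UMIs in naive and from 19.3 to 11.3 to 5.38% in CTX cells.

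Single genes differed in shape over the azurophil range (plot of gene levels by azurophil range). The replication list summed to 3023, 3545 and 3942 CPM over the 3 naive member ranges and 3122, 3713 and 3877 CPM over the CTX ones, and its Mcm6 stood at 148, 162 and 171 CPM over the 3 naive member ranges and 139, 165 and 167 CPM over the CTX ones. Some monocyte genes fell step by step, as with Fn1 at 1207, 732 and 338 CPM and 1271, 892 and 400 CPM, and Ccr2 at 729, 568 and 443 CPM and 706, 580 and 421 CPM. Ms4a3 was low at first and rose late, at 3.54, 9.52 and 34.7 CPM and 5.48, 16.8 and 79.2 CPM. Myb stood at 17.2, 25.5 and 34.7 CPM and 22.2, 29.6 and 31.7 CPM. The 3 ranges held 122, 129 and 47 naive and 231, 201 and 100 CTX cells.

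**Figure D4:**
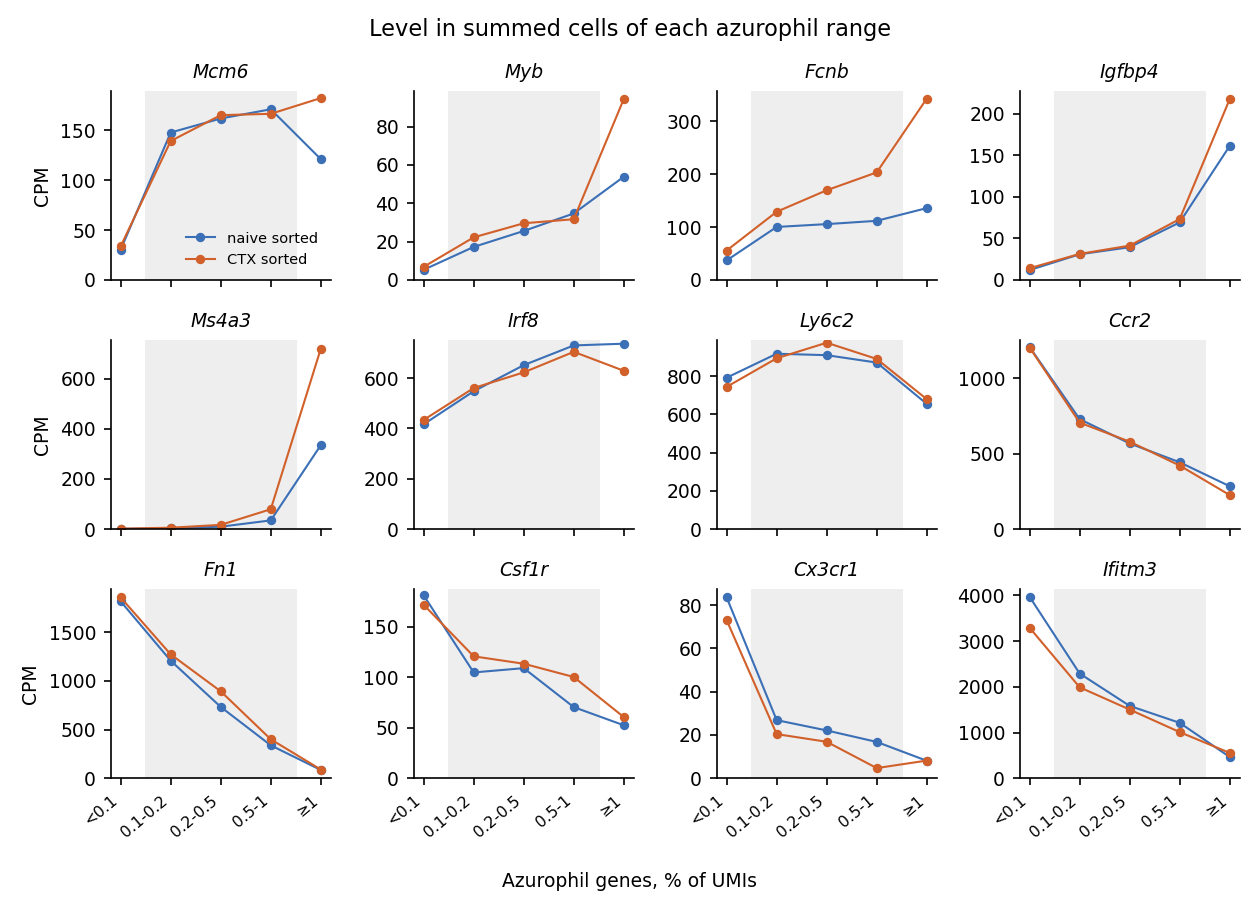
Level of 12 genes (y axes, CPM of summed cells, each from 0) in low monocytes, in the 3 azurophil ranges of intermediate monocytes (shaded) and in high monocytes (x axis, azurophil share of UMIs in percent), for the naive (blue) and CTX (orange) sorted libraries. Mcm6 is raised over the whole shaded range, Ms4a3 mainly past it, and Ccr2, Fn1 and Ifitm3 fall across it.

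In the CTX sorted library, intermediate monocytes took a larger share of the cells than in the naive one, and few genes differed by 1 log2 unit between the members of both. In whole BM the same rule gave 23.3% of gated monocytes both in naive mice and on day 7 after CTX, while high monocytes made up 4.36 and 8.96% and low ones 62.3 and 55.97%, in libraries where 14.2 and 12.9% of B cells also reached the lower azurophil limit. The sorted share was 20.7% against 15.8%, a log2 ratio of 0.40 (0.19 to 0.61 by counting error), beside 1.08 (0.51 to 1.67) for high monocytes and -0.13 (-0.23 to -0.03) for low ones. With 1 library per group, CTX and any difference between the 2 sorts or libraries cannot be told apart. Among members, 4 of 5489 genes were higher in CTX (0.0729%) and 22 lower (0.401%). Among low monocytes, 2 of 5552 were higher (0.036%) and 39 lower (0.702%), and among high monocytes 15 of 1607 were higher (0.933%) and 6 lower (0.373%). The member share above 0.5% of azurophil UMIs was 18.8% in CTX and 15.8% in naive cells, with overlapping intervals (15.6 to 22.4% and 11.8 to 20.4%).

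Of the 22 genes lower in CTX members, 9 were in the chemokine ligand and inflammation list. Of 12 measured genes of this list 9 were lower in members (median -1.21, against 0.01 over all genes), and in low cells 8 of 13 (median -1.502). Of 14 immediate early genes, which also respond to cell handling, 12 were below 0 in members with 1 past 1 log2 unit (median -0.26), and 14 in low cells with 2 past it (median -0.40), and their part in these values was not tested. Cxcl2, a neutrophil attractant, had 242 CPM among naive members against 13.1 CPM among CTX members (-4.10, -4.50 to -3.91) and 1148 and 62.8 CPM in low cells (-4.17). The NF-kB inhibitor Nfkbia stood at 376 and 85.04 CPM (-2.13) and 708 and 150 CPM (-2.23), and Clec4e, a receptor for microbial and damaged-cell products, at 40.7 and 9.59 CPM (-1.98) and 125 and 34.5 CPM (-1.83). Tnfaip3, Nfkbiz, Ccrl2, Dusp2 and Ier3 lay between -1.60 and -1.37 in members. Hspa1a, a heat shock gene that also responds to cell handling, stood at 51.0 and 7.37 CPM in members (-2.63) and 61.8 and 20.04 CPM in low cells (-1.58). Nme2 and CAAA01147332.1 (-1.95 and -1.63 in members) have near-identical copies among which reads can be split, and their values are uncertain.

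The 4 genes higher in CTX members were Apoe, Cyp51, Smad7 and Ms4a3. Apoe and Cyp51 passed 1 log2 unit under each alternative except cells with no mitosis UMI, where none of the 4 could be measured. Ms4a3 had too few counts to be measured with an upper limit of 0.5% (ratio 0.63). It was at 0.87 with the rule on thinned cells, 0.97 among cycling cells and 0.95 with azurophil ranges weighted as in naive members. Smad7 rested on 46 and 163 UMIs, close to the 200 UMIs a gene needed to be measured, and could not be measured with an upper limit of 0.5%, a lower limit of 0.2%, the rule on thinned cells or cycling cells. The number of higher genes was 2 with 3 of these 4 settings and 7 with the lower limit of 0.2%. Cyp51, an enzyme of cholesterol synthesis, stood at 34.8 CPM in CTX against 15.6 CPM in naive members (1.10), with 1.01 in low cells. Smad7, an inhibitor of TGF-beta signals, reached 1.09 in members and 0.48 in low cells. Sqle, another enzyme of that synthesis, and Id2, a repressor of differentiation factors, were both at 0.92, under the threshold, with 0.83 and 0.15 in low cells. The alarmin genes S100a8 (1484 CPM in naive and 2686 CPM in CTX members, 0.86) and S100a9 (1051 and 1883 CPM, 0.84) were higher by less than 1 log2 unit, and in low cells by 0.48 and 0.70. Chil3, a chitinase-like protein, stood at 140 and 251 CPM (0.84) and in low cells at 347 and 632 CPM (0.86). Ms4a3 stood at 11.6 and 25.3 CPM (1.06). The replication list (median 0.06), the mitosis list (0.03), the monocyte identity list (-0.02) and the interferon list (-0.08) had no gene past 1 log2 unit. The mitosis share of thinned members was 77.0% in naive and 78.6% in CTX cells, and its intervals overlap.

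**Figure D5:**
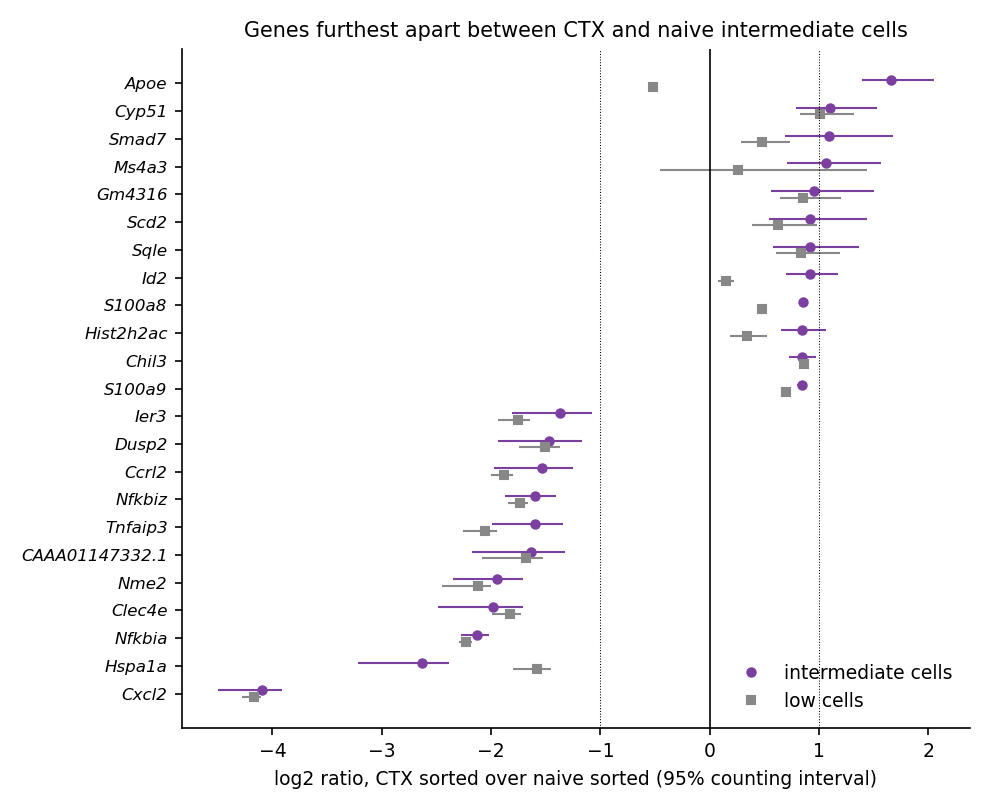
Log2 ratio of CTX over naive (x axis) for the 12 highest and 11 of the 12 lowest genes among intermediate monocytes (y axis), in intermediate (purple circles) and low monocytes (grey squares), with exact 95% counting intervals of the ratio and dotted lines at 1 log2 unit. Cxcl2 lies near -4.10 in both sets, and Apoe lies at 1.66 in intermediate and -0.52 in low cells.

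The whole BM libraries, whose cells were not among those compared above, gave mostly the same signs for the genes that could be measured in their monocytes. Their monocytes were cut by the same azurophil limits, so the result is again a description and not independent of the rule. Monocytes were gated there by at least 3 UMIs of Ly6c2 and at least 3 of Csf1r, Ccr2, F13a1 and Ms4a6c, and the rule then gave 123 of 528 cells in naive BM (23.3%, 19.8 to 27.1%), 42 of 239 on day 2 (17.6%, 12.97 to 23.0%) and 187 of 804 on day 7 after CTX (23.3%, 20.4 to 26.3%). Over all measured genes, 1.24, 6.45 and 2.63% were higher in members than in low monocytes and 3.59, 10.5 and 2.49% lower. Of the 175 genes higher in both sorted libraries, 64, 65 and 80 had enough counts to be measured there, 64, 62 and 80 of these had the same sign and 34, 27 and 66 passed 1 log2 unit. Of the 172 lower in both, 81, 67 and 121 were measured, all with the same sign, and 67, 60 and 67 passed 1 log2 unit. The share of same signs over all measured genes is not given here, so nothing is read from these counts. Replication genes passed 1 log2 unit in 13 of 14, 9 of 17 and 18 of 18 cases, with medians of 1.49, 1.02 and 1.47. Mitosis genes differed between libraries, with medians of 0.66 and 0.94 in naive and day 7 BM and -0.23 on day 2. B cells, which should lack these genes, reached the lower azurophil limit in 14.2% of naive, 2.18% of day 2 and 12.9% of day 7 cells, with 0.0601, 0.160 and 0.166% of their summed UMIs from azurophil genes, and day 2 members were much deeper than low cells (a median of 34055 against 8108 UMIs). Several markers of other cells were also lower in members than in gated low monocytes. Of measured dendritic cell genes 2 of 2, 4 of 4 and 2 of 2 were lower (medians -3.91, -6.15 and -3.04), of neutrophil genes 3 of 4, 3 of 4 and 1 of 5, of erythroid genes 4 of 4 in naive BM, and of B lineage genes 1 of 1 on days 2 and 7 (-1.54 and -2.70), with 2 of 2 T and NK genes on day 7 (-4.74) and 1 of 1 higher in naive BM (5.34). The part of background, depth and other cells in these values was not tested.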

How the data were processed

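Libraries were made with the 10x 3′ V3 kit, and per the labels and the study's methods the authors made the deposited UMI counts with Cell Ranger 3.1 on mm10 and analysed them in Seurat 5.0. The deposited matrices were 1 per library, with at least 503 (naive) and 500 (CTX) UMIs per barcode. The members, gene lists and comparisons were chosen with earlier results of these data known. Cells were selected by the rule, UMIs were summed over cells of a set, scaled to CPM and compared as log2 ratios with 1 CPM added, and no read length correction was made because 3′ tags were counted. With 1 library per group no test was made, and exact Clopper-Pearson, Poisson and conditional 95% intervals cover counting error only. Named genes were the 12 highest and 12 lowest by the smaller ratio of both libraries (for CTX against naive, by the ratio) and the genes of the lists. Immunoglobulin genes, Xist and genes on Y were listed apart, and some genes that meet these rules are not reported here. Doublets were marked with Scrublet (scanpy 1.11.5) and not removed. The work used Python 3.11.15, numpy 2.4.6, scipy 1.17.1, pandas 2.3.3 and matplotlib 3.10.9. On simulated counts of 5307 genes for naive members against low monocytes, all 50 genes at each of 4 true log2 values (1.5, -1.5, 3 and -3) passed 1 log2 unit, as did 0 of 5107 unchanged genes, and intervals held the true value after rescaling to total UMIs in 95.2% of unchanged genes. The rescaling moved the median of unchanged genes to -0.20 and those of the changed ones to 1.29, -1.68, 2.79 and -3.13. All simulated cells of a set were drawn from the same gene profile, without differences between cells. The simulation therefore covers counting error only and does not show how intervals and calls behave where cells of a set differ. Alternatives changed the filters on cells and genes, the limits of the rule, depth, doublets, scaling, the added CPM and cycling.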

Additional observations from a re-analysis of the deposited data

Results flagged for a closer look

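Apoe moved in opposite directions in intermediate and low monocytes, which is why it is given here. Among intermediate monocytes it stood at 18.0 CPM in the naive and 59.0 CPM in the CTX library, a log2 ratio of 1.66 (95% counting interval 1.39 to 2.05). Among low monocytes it stood at 778 and 542 CPM, a log2 ratio of -0.52 (-0.56 to -0.48). Among high monocytes it stood at 4.04 and 44.3 CPM (3.17, 1.85 to 5.76), where the naive value rests on 3 UMIs. It was detected in 11.7% of naive and 27.6% of CTX members, and in 3.48 and 14.9% of those thinned to 4000 UMIs. The ratio among members was 1.06 when the rule was applied to thinned cells, 1.11 among cycling cells and 2.62 with a lower limit of 0.2%. With 1 library per group the difference between these 2 ratios was not tested, and the part of free Apoe RNA from low monocytes in the member values was not tested either.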

How the results depend on the processing

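No paired analysis was possible because each group had 1 library and the groups share only replicate number 1. Of 4140 gene values under the alternatives, 3140 stayed within their counting interval, 978 moved further and 22 changed sign. This tally does not measure how stable the values are. Dropping the filter on low genes cannot change a ratio, and the smaller added CPM moved none out of its interval. A few unchanged ratios count as moved because, with 1 CPM added, they already lay outside the interval. The share of members (naive and CTX) was 9.31 and 11.7% with a lower limit of 0.2%, 26.2 and 32.5% with 0.05%, 13.3 and 16.8% with an upper limit of 0.5%, 22.7% in CTX with 2%, and 18.6 and 22.7% when the rule was applied to cells thinned to 4000 UMIs, while the log2 ratio of CTX over naive shares stayed between 0.29 and 0.42. Counts of higher and lower genes are given in this order. With no filter on low genes they were 471 and 570 (naive) and 324 and 472 (CTX) against low monocytes, 1405 and 574 (naive) and 921 and 504 (CTX) against high ones, and 52 and 80 for CTX against naive members. In cells with no mitosis UMI (8 naive and 14 CTX members) they were 118 and 611 (naive) and 90 and 420 (CTX) against low monocytes, 17 and 7 against CTX high ones, of which 3 cells were left, and 3 and 0 of only 130 measured genes for CTX against naive members; the naive comparison with high monocytes could not be run. Among cycling cells, chosen after seeing the data, they were 17 and 46 (naive) and 21 and 54 (CTX) against low monocytes, with 201 higher against CTX high ones and 2 higher for CTX against naive members. With the mean of cell CPM, 313 genes were higher than in CTX low and 26 lower than in naive high monocytes. With an upper limit of 0.5% they were 70 and 8 (naive) and 87 and 31 (CTX) against high monocytes, and with a lower limit of 0.2% 97 and 11 (naive) and 148 higher (CTX). For CTX against naive members, 2 genes were higher with the upper limit of 0.5% and with the thinned rule, and 7 with the lower limit of 0.2%. Scaled by the median gene ratio, 34 genes were lower than in naive high monocytes, and 181 higher and 91 lower than in CTX high ones.

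Log2 ratios against low monocytes that changed sign in naive cells with no mitosis UMI were Emp1 1.15, Camk1d 0.22, Igfbp4 -2.91, Chil3 0.52, Ier3 0.34, Cd68 0.087, Cdt1 -4.29, Fen1 -3.50 and Ighm 0.44, and in CTX cells Hist2h2ac -3.63, Clec4e 0.018 and Pclaf -3.52, with S100a8 at 0.54 against high monocytes. Among cycling cells they were Birc5 -0.20, Ccna2 -0.21, Ighm 0.0095, Nusap1 -0.20, Plk1 -0.13, Top2a -0.030 and Tubb5 -0.056 (naive) and Cdk1 -0.092 and Top2a -0.021 (CTX). These alternatives leave fewer cells by construction, and the cause of the other changes was not tested. The counts rest on 1 library per group and on 35 naive and 100 CTX high monocytes, so genes of low level could be compared with high monocytes only in part.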

Other observations

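Ighm, a gene of B lineage cells that the rules for named genes list apart, stood at 199 CPM in naive intermediate monocytes and 897 CPM in naive low monocytes (log2 ratio -2.17), and at 165 and 172 CPM in the CTX library (-0.06). The 10 B lineage genes together gave 14674 UMIs in naive and 4023 in CTX low monocytes, with at least 3 UMIs in 439 and 458 cells, so the naive value is a sum over cells of unequal level and not the level of a typical low monocyte. Among cycling cells of the naive library the ratio was 0.01.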
